A study of Mus musculus with 4 samples.

Results

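The 43 genes described here encode the proteins that license, start and carry out DNA replication, with regulators of S phase entry. They were listed by function, and no threshold on signal entered the choice. Each was read by the probe set with the highest mean signal over the 4 arrays among those given its symbol alone, and all 43 were found among 18193 genes measured. DNA replication starts when the origin recognition complex, Cdc6 and Cdt1 load the ring of Mcm2 to Mcm7 onto DNA in G1. Cdc7 kinase and cyclin E kinase then turn that ring, with Cdc45 and the GINS complex, into the active helicase, and polymerases copy the strands behind it. Many of these genes are known targets of the E2F transcription factors, so their transcripts are commonly used to follow entry of cultured cells into S phase.

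The study used mouse DFAT cells, the fibroblast-like descendants of fat cells that have shed their lipid droplet and lost the mature phenotype, grown in DMEM with 10% serum. One group had the solvent DMSO and another Y-27632, which inhibits the ROCK kinases. The remaining groups had a control siRNA or siRNA targeting Mkl1, an actin-regulated coactivator of SRF. The labels give no dose, time, genotype, cell density or medium change, and name only 1 array of total RNA for each of the 4 groups. Each difference is thus between single arrays and carries no p-value or error, and its precision is limited by that number. In bulk RNA, fewer cells in S phase and less transcript per cell cannot be told apart.

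All values are log2 RMA signals, so a difference of 1 is 2-fold and 0.58 is 1.5-fold. Array medians ran from 5.67 to 5.71. Of the 43 genes, 41 reached the median of all values (5.69) on at least 1 array. The exceptions were E2f2 (highest 4.95) and Tyms (highest 4.48), whose signals lie in the weaker part of the array, where RMA compresses differences. Counts over all genes below are over the 11600 genes whose highest array reached that median. The targeted transcript Mkl1, now named Mrtfa, had signals of 8.32 on the DMSO array, 8.18 with Y-27632, 8.55 for the control siRNA and 7.70 for its own siRNA, which put it at -0.85 against control siRNA. All 9 measured stromal markers were strong on every array (lowest 11.18), including Col1a1, Vim and Pdgfrb, although all 9 were lower with Mkl1 siRNA than with control siRNA, with a median of -0.32. Fat cell markers stood far higher with both treatments. The log2 of their summed signal was 13.06 with DMSO, 15.16 with Y-27632, 12.96 with control siRNA and 15.21 with Mkl1 siRNA, and 9, 9 and 8 of 10 reached the median signal with Y-27632, Mkl1 siRNA and control siRNA against 7 with DMSO. Control probe sets for 18S ribosomal RNA differed by -0.48 with Y-27632 and by -0.48 with Mkl1 siRNA, against 0.15 between the control arrays. The gap between 3' and 5' control probe sets of Actb, a measure of RNA integrity, moved by 0.26 under Y-27632 and by 0.14 under Mkl1 siRNA, whereas control siRNA stood at -0.03 from DMSO. For Gapdh the same gap moved by 0.04, 0.03 and -0.15 in those comparisons, so the control genes did not give the same picture. The part of these differences in the results below was not tested.

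Promoter sequence is shown for some of the genes that stood 1.5-fold or furthest from their control in their role, because the letters bound by E2F are a feature of this family that its choice did not use. RefSeq windows (assembly GRCm38.p6, 250 bases before to 50 after the annotated start) were found for 35 of the 43 genes. Missing were Gins1, Gins2, Gmnn, Ccne2, Mcm4, Pole, Prim2 and Rfc2. The windows were searched on both strands for TTTCCCGC, TTTCGCGC, TTTGCCGC and TTTGGCGC, and overlapping matches were allowed. At least 1 of these was present in 15 of the 35 genes (42.9%), against 704 of 27025 genes (2.60%) over all promoters. The letters CCAAT, on either strand, were present in 21 of the 35 (60.0%), against 41.1% of all genes. Below are the 160 bases before the start of Mcm5 and Mcm6, whose capitals mark the E2F letters, and of Rrm2, which held none of the E2F forms and whose capitals mark CCAAT. For Cdt1 and Lig1 only the matching site is given, which lies just after the annotated start, again with the E2F letters in capitals.
Mcm5, chr8:75109349-75109508, + strand: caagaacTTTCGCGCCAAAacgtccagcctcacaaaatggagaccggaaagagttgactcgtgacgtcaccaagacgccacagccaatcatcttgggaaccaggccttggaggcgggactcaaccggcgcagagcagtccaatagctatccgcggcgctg
Mcm6, chr1:128359706-128359865, - strand: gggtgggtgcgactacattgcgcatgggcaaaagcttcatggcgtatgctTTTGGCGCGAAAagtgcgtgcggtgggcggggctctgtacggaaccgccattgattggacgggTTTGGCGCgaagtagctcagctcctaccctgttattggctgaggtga
Rrm2, chr12:24708094-24708253, + strand: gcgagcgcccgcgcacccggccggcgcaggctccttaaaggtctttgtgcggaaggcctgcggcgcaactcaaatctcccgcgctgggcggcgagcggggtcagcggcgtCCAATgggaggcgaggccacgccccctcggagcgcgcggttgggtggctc
Cdt1, chr8:122568039-122568062, + strand: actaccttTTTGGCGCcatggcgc
Lig1, chr7:13278844-13278867, + strand: caaagtgcGCGCGAAAtctgtgtg

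A match describes these letters in this window and does not show binding. In Mcm5 both matches overlap, and in Mcm6 an overlapping pair lies further from the start than a single match. The 15 genes with a match had medians of -0.32 for Y-27632 against DMSO and 0.01 for Mkl1 siRNA against control siRNA. The 20 genes without one had -0.20 and 0.06. Between the control arrays the medians were -0.41 and -0.21. These are descriptions of both sets, and the difference between them was not tested.

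The DMSO array carried the highest signal for most of the family. It was the highest of the 4 arrays for 27 of the 43 genes (62.8%), against 23.8% of all genes. The Y-27632 array was highest for 3 genes (7.0%, against 21.0% of all genes). Control siRNA was highest for 7 (16.3%, against 23.9%) and Mkl1 siRNA for 6 (14.0%, against 31.25%). The lowest array was Y-27632 for 15 genes (34.9%, against 20.2% of all genes) and Mkl1 siRNA for 13 (30.2%, against 31.4%). It was control siRNA for 12 (27.9%, against 25.7%) and DMSO for 3 (7.0%, against 22.6%). Thus the DMSO array stood apart at the top. No other array was consistently at the bottom, although Y-27632 was lowest more often than over all genes.

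**Figure D1:**
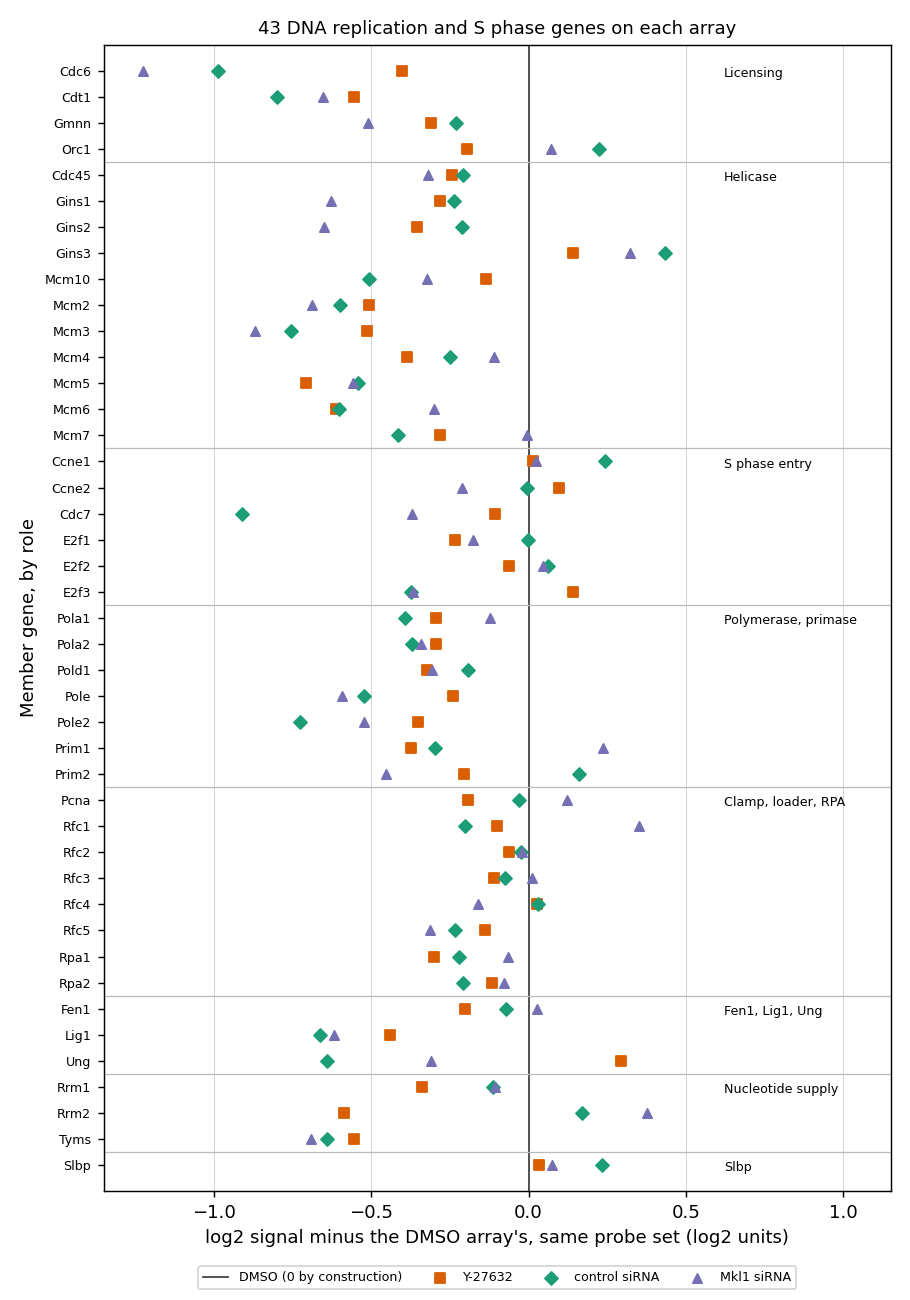
Log2 signal of each of the 43 genes on the Y-27632, control siRNA and Mkl1 siRNA arrays minus its signal on the DMSO array (the line at 0), on the same probe set, with genes grouped by role on the vertical axis and 1 array per point. Most points lie left of 0 for all 3 arrays, furthest for Cdc6 with Mkl1 siRNA at -1.23, while Gins3, Slbp and Rrm2 on the siRNA arrays lie right of it.

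Under ROCK inhibition the family was modestly lower than with DMSO. Of the 43 genes 36 (83.7%) were below 0, against 49.4% of all genes, and the median difference was -0.24, against 0.00 over all genes. The shift was broad rather than large: 3 genes were at least 1.5-fold lower, where 1.33% of all genes were, and none was 1.5-fold higher, where 3% of all genes were. None reached 2-fold in either direction, where 0.224% of all genes were 2-fold lower and 1.27% 2-fold higher. These comparisons use the DMSO array, and 35 of the 43 genes were also lower with control siRNA than with DMSO, with a median of -0.23 against -0.01 over all genes. Both comparisons share that 1 DMSO array. With control siRNA as the reference instead, the Y-27632 median was -0.03, with 24 genes below 0 and 19 above. There Ung, Cdc7 and Cdc6 were at least 1.5-fold higher, where 5.7% of all genes were, and Rrm2 was 1.5-fold lower, where 3.25% were. None reached 2-fold in that pair, where 2.03% of all genes were higher and 0.75% lower by as much.

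The Mkl1 siRNA array was not shifted as a whole against its own control. Of the 43 genes 22 were above and 21 below control siRNA, with a median of 0.00, as over all genes. A single gene, Prim2, was at least 1.5-fold lower, where 5.91% of all genes were, and none was 1.5-fold higher, where 5.42% were, so these shares were no larger than the background, and Prim2 was not 1.5-fold lower with the mean of all its probe sets. No gene of the family was 2-fold higher or lower, where 1.79% and 1.74% of all genes were. Against DMSO the Mkl1 siRNA array was lower for 32 of 43 genes with a median of -0.30. There 9 were at least 1.5-fold lower, where 8.74% of all genes were, and none was 1.5-fold or 2-fold higher, where 7.4% and 2.73% were.

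**Figure D2:**
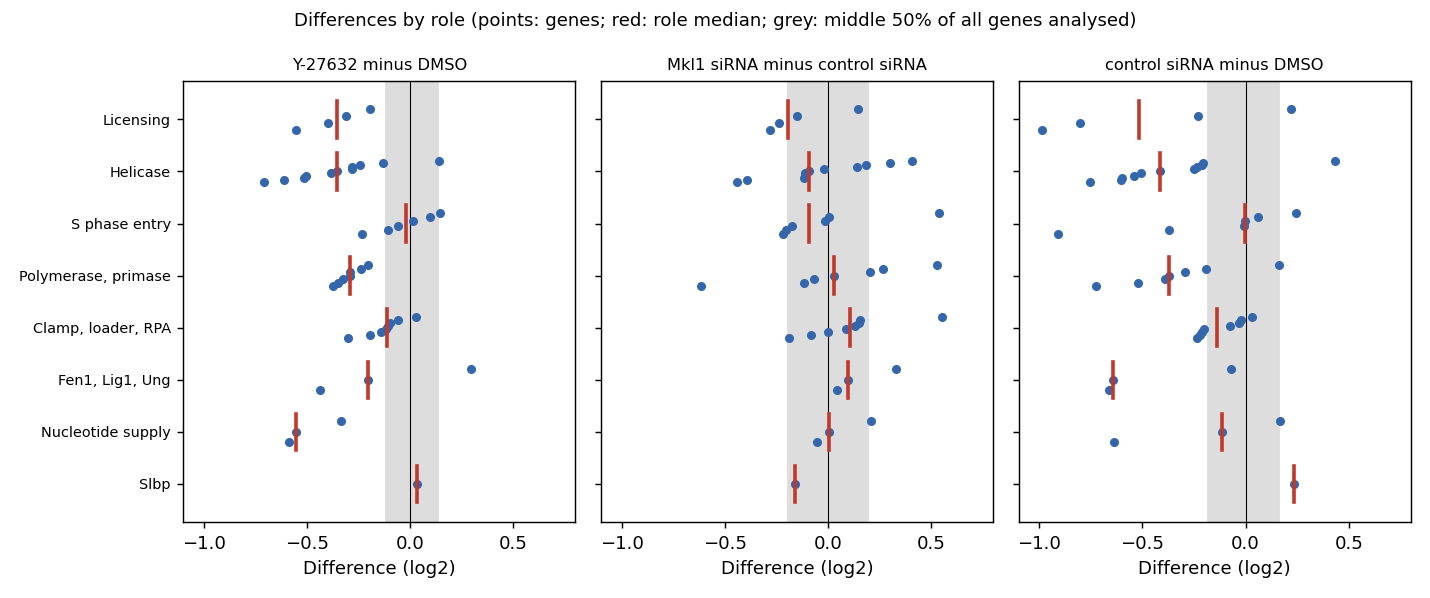
Log2 differences of the 43 genes by role for the 3 comparisons, with 1 point per gene, a red bar at the median of each role and a grey band over the middle 50% of the 11600 genes. With Y-27632 the band starts at -0.12, and the medians of licensing, helicase, polymerases, nucleotide supply and the Fen1, Lig1 and Ung group lie left of it. With Mkl1 siRNA the band runs from -0.19 to 0.20, with the licensing median at its lower edge and the other medians inside it.

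Licensing factors prepare origins before S phase. All 4 were lower with Y-27632 than with DMSO, with a median of -0.36. Cdt1, which brings the Mcm ring to origins, had signals of 10.17 with DMSO, 9.62 with Y-27632, 9.37 with control siRNA and 9.52 with Mkl1 siRNA. DMSO was the high array, and the other 3 lay close together. Its second strong probe set differed by -0.51 with Y-27632, beside -0.55 for the first, and both stood at 0.15 with Mkl1 siRNA. Cdc6, the ATPase that works with Cdt1, had signals of 6.70, 6.30, 5.72 and 5.48 in the same order of arrays. Both siRNA arrays were low for Cdc6, at -0.99 for control siRNA and -1.23 for Mkl1 siRNA against DMSO, the latter the only difference of at least 2-fold in the family in any pair of arrays examined here. Of all genes 3.23% were 2-fold lower in that pair.

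Gmnn, or geminin, binds Cdt1 and prevents licensing from being repeated, and differed by -0.31 with Y-27632 and by -0.28 with Mkl1 siRNA. It was lower than its own control in both treatments, like Cdc6 at -0.40 and -0.24. Orc1, a subunit of the origin recognition complex, was lower by -0.20 and -0.15, but its control siRNA array stood above DMSO by 0.22, while its other probe set, which was weaker, put that array at -0.46.

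The helicase held the genes furthest below DMSO with Y-27632. On the probe sets used, all 6 subunits of the Mcm2 to Mcm7 ring were below DMSO, from -0.71 to -0.28, with a median of -0.51. Mcm5 had signals of 9.62 with DMSO, 8.92 with Y-27632, 9.08 with control siRNA and 9.06 with Mkl1 siRNA. Y-27632 over DMSO was a ratio of 0.612. Its second strong probe set repeated the pattern at 7.67, 6.90, 6.91 and 6.90. The DMSO array alone was high. Mcm6 was next, with 9.99, 9.38, 9.39 and 9.69, a ratio of 0.654. Here Mkl1 siRNA lay between DMSO and the remaining arrays.

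Mcm2 and Mcm3 had nearly equal differences with Y-27632, both at -0.51, and each was lower still on the control siRNA array, at -0.60 and -0.76 against DMSO. The signals of Mcm3 were 9.15, 8.63, 8.39 and 8.28, and those of Mcm2 were 9.97, 9.47, 9.37 and 9.28. For both, every array other than DMSO was low. Mcm4 differed by -0.39 and Mcm7 by -0.28 with Y-27632. The other strong probe set of Mcm4 gave -0.11, and the others of Mcm7 ran from -0.28 to -0.10.

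With Mkl1 siRNA the subunits of the ring parted. Mcm7 was higher than control siRNA by 0.41, Mcm6 by 0.30 and Mcm4 by 0.14, whereas Mcm5 stood at -0.02, Mcm2 at -0.09 and Mcm3 at -0.11. Mcm7 had signals of 10.76 with DMSO, 10.48 with Y-27632, 10.35 with control siRNA and 10.76 with Mkl1 siRNA. The Mkl1 siRNA and DMSO arrays were level, and the control siRNA array was the low one. All 4 Mcm7 probe sets gave this direction, from 0.29 to 0.45, and the 3 strong probe sets of Mcm3 gave the opposite one, from -0.30 to -0.11.

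The GINS complex and Cdc45 travel with the ring as the active helicase. Gins2 had signals of 8.65 with DMSO, 8.30 with Y-27632, 8.44 with control siRNA and 8.0 with Mkl1 siRNA, and Gins1 had 7.02, 6.73, 6.78 and 6.39. The Mkl1 siRNA array was the lowest for both, at -0.44 and -0.39 against control siRNA. The second probe set of Gins2 gave -0.58. Gins3 differed from them: the DMSO array was its lowest, with 7.15, 7.29, 7.58 and 7.47, although its weaker probe set gave -0.17 in place of 0.14 with Y-27632. Cdc45 was lower by -0.24 and -0.11. Mcm10, which binds the helicase and helps to activate it, differed by -0.13 and 0.18, and its control siRNA array stood at -0.51 against DMSO.

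Regulators of S phase entry did not follow the helicase. With Y-27632 3 of 6 were above and 3 below DMSO, with a median of -0.02. This median was 0.09 with the mean of all probe sets. It was 0.14 without probe sets whose name endings mark possible binding to several transcripts, a setting that leaves out Cdc7. The E cyclins, which activate Cdk2 at the start of S phase, were Ccne1 at 0.02 and Ccne2 at 0.10 with Y-27632, and they stood at -0.22 and -0.21 under Mkl1 siRNA. The other strong probe set of Ccne1 gave 0.32 with Y-27632 and -0.03 with Mkl1 siRNA. E2f1, an activating E2F, had signals of 7.81, 7.57, 7.81 and 7.63 on its main probe set, but the second strong one gave 0.21 in place of -0.23 with Y-27632, so no direction can be read. Both gave a lower value with Mkl1 siRNA, at -0.17 and -0.28. E2f3 had 8.58 with DMSO, 8.72 with Y-27632, 8.21 with control siRNA and 8.22 with Mkl1 siRNA. On this probe set both siRNA arrays were low and nearly level. Its other strong one gave -0.01 for control siRNA against DMSO and -0.17 for Mkl1 siRNA against control siRNA. E2f2 was weak, with signals from 4.82 to 4.95.

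Cdc7, the kinase that phosphorylates the Mcm ring, had signals of 6.95, 6.85, 6.04 and 6.58, so that control siRNA was low and Mkl1 siRNA higher than it by 0.54. Its second probe set, which stayed below the median signal, ran from 5.12 to 5.63 with DMSO the lowest array. The probe sets therefore disagreed, and Cdc7 stood at 0.20 with the mean of both.

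Polymerases and primase start and extend the new strands. All 7 genes were below DMSO with Y-27632, in a narrow range from -0.37 to -0.20 with a median of -0.29. Pola1 and Pola2, subunits of the polymerase that starts each strand, both stood at -0.29. Pold1, catalytic subunit of the lagging strand polymerase, stood at -0.32, and Pole and Pole2, of the leading strand polymerase, at -0.24 and -0.35. Pole2 had signals of 8.74 with DMSO, 8.39 with Y-27632, 8.02 with control siRNA and 8.22 with Mkl1 siRNA, with control siRNA the lowest at -0.73.

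With Mkl1 siRNA both subunits of primase, which makes the RNA primers, stood at opposite ends of the group. Prim1, the catalytic subunit, had signals of 9.32 with DMSO, 8.94 with Y-27632, 9.02 with control siRNA and 9.55 with Mkl1 siRNA. The siRNA arrays thus differed by 0.53, a ratio of 1.44. Its second probe set gave 0.62. Prim2, the large subunit, had 8.21, 8.01, 8.37 and 7.76, a difference of -0.61 and a ratio of 0.654. Its second strong probe set gave -0.56, and a further, weaker one gave -0.06. Mkl1 siRNA was thus the highest array for Prim1 and the lowest for Prim2. Against the DMSO array the opposite signs held, at 0.23 and -0.45.

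**Figure D3:**
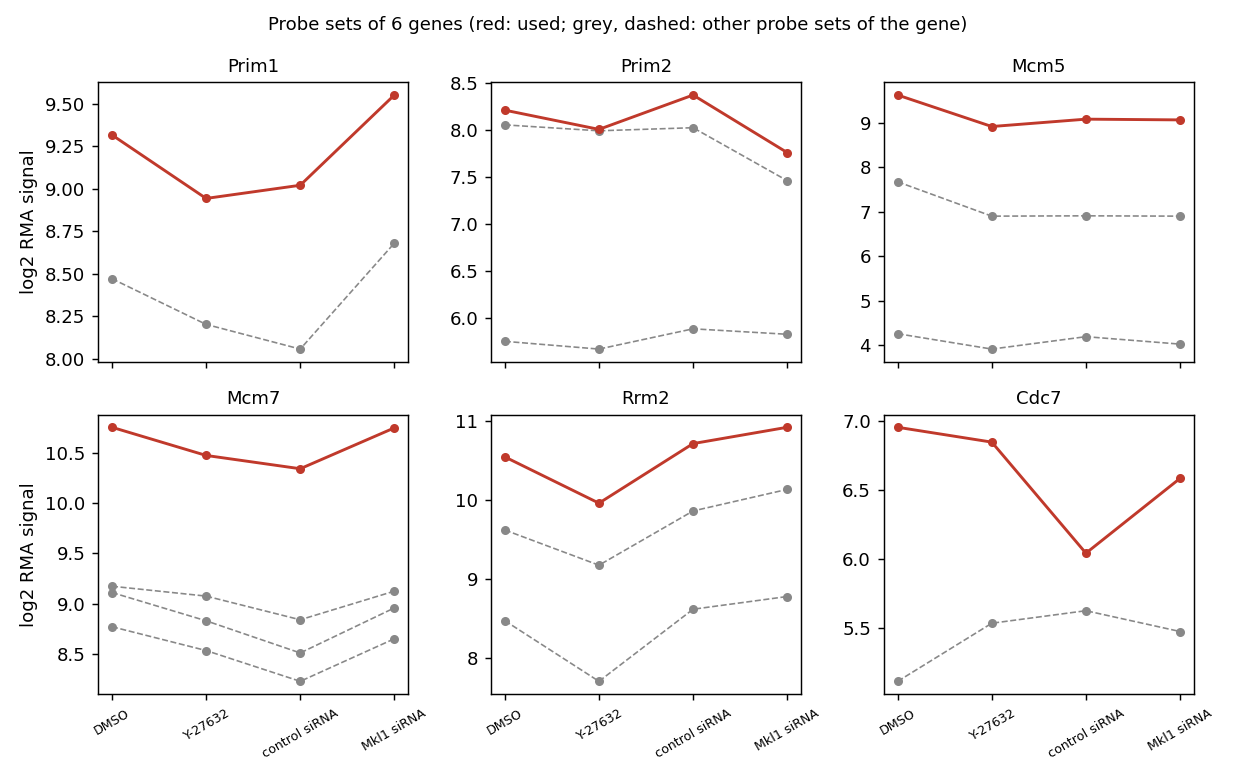
Log2 RMA signals on the 4 arrays of every probe set of Prim1, Prim2, Mcm5, Mcm7, Rrm2 and Cdc7, with the probe set used in red, the others in grey, and lines that only join values of 1 probe set. The Prim1 probe sets and the strong Prim2 probe sets move in opposite directions from control siRNA to Mkl1 siRNA, all Rrm2 probe sets have their minimum with Y-27632, and the 2 of Cdc7 disagree.

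The sliding clamp, its loader and the single-strand binding proteins lay close to DMSO with Y-27632. Their 8 genes ran from -0.30 to 0.03, with a median of -0.11. Pcna, the clamp that tethers polymerases to DNA, had signals of 12.18, 11.98, 12.15 and 12.30, with Y-27632 the lowest array by a small step. Rpa1, which coats single-stranded DNA, differed by -0.30 with Y-27632 on its main probe set and by -0.16 on the other. Rpa2 differed by -0.12. Of the clamp loader, Rfc2, Rfc3, Rfc4 and Rfc5 lay between -0.14 and 0.03 with Y-27632 and between -0.19 and 0.09 with Mkl1 siRNA.

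Rfc1, the large subunit of the loader, was the exception. Its signals were 8.76 with DMSO, 8.66 with Y-27632, 8.56 with control siRNA and 9.11 with Mkl1 siRNA. The Mkl1 siRNA array was the high one, by 0.55 over control siRNA, a ratio of 1.47 and the largest positive difference of the family in that comparison. All 3 Rfc1 probe sets were higher with Mkl1 siRNA than with control siRNA, from 0.31 to 0.60. On the weakest of them the DMSO array was highest, at 7.22 beside 7.14 with Mkl1 siRNA.

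Fen1 trims the flaps of lagging strand fragments and Lig1 joins them, while Ung removes uracil from new DNA. Lig1 had signals of 8.62, 8.18, 7.96 and 8.0, with DMSO high and both siRNA arrays low, and differed by -0.44 with Y-27632. Fen1 differed by -0.20 and 0.10. Ung had 6.27 with DMSO, 6.57 with Y-27632, 5.63 with control siRNA and 5.96 with Mkl1 siRNA. It was the gene furthest above DMSO with Y-27632 in this family, at 0.30 on its 1 probe set, and it was 0.94 above the control siRNA array.

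Nucleotide supply showed a gene that departed from the helicase pattern. Rrm2, the S phase subunit of ribonucleotide reductase, had signals of 10.54 with DMSO, 9.96 with Y-27632, 10.71 with control siRNA and 10.92 with Mkl1 siRNA. The Y-27632 array alone was low, at -0.59 against DMSO, which just reached 1.5-fold, and at -0.75 against control siRNA. The other Rrm2 probe sets gave -0.77 and -0.45 against DMSO. Rrm1, the partner subunit, had 10.28, 9.94, 10.17 and 10.18, again with Y-27632 lowest. It differed by -0.34. The thymidylate synthase Tyms stood at -0.56, but from signals of 4.48 to 3.79 over its arrays, which are too weak to rank.

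Slbp, which binds the stem-loop of histone mRNA, stood at 0.03 with Y-27632 and -0.16 with Mkl1 siRNA. Its second strong probe set pointed the other way in both.

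The control arrays themselves differed for many of these genes. With control siRNA 10 of the 43 were at least 1.5-fold lower than with DMSO, where 4.09% of all genes were, and none was 1.5-fold higher, where 3.42% were. They were Cdc6 at -0.99, Cdc7 at -0.91, Cdt1 at -0.80, Mcm3 at -0.76, Pole2 at -0.73, Lig1 at -0.66, Ung and Tyms at -0.64, and Mcm6 and Mcm2 at -0.60. With the mean of all probe sets the count was 3. None reached 2-fold in either direction, where 1.09% of all genes were lower and 0.957% higher by as much. Gins3 stood highest at 0.43. The labels give no reason for a gap between the controls, and do not say whether the siRNA groups had DMSO. Transfection and solvent cannot be told apart there.

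Both treatment comparisons share no array, so they can be set side by side gene by gene. With Y-27632 below its control, 20 of the 43 genes were above control with Mkl1 siRNA (46.5%, against 20.9% of all genes) and 16 were below it in both (37.2%, against 28.4%). Another 5 stood above DMSO under Y-27632 but below control siRNA under Mkl1 siRNA, and Ung and E2f3 were above in both. For E2f3 the Mkl1 siRNA value was only 0.01, and its other strong probe set gave -0.17. Across the 43 genes, which are not independent replicates, Pearson's r was -0.04 and Spearman's rho -0.09, against 0.39 and 0.26 across all genes. The shares above depend on how each comparison split by itself. Of the family 83.7% were below DMSO with Y-27632 and 51.2% above control siRNA with Mkl1 siRNA, against 49.4% and 50.1% of all genes. The references also differed for these genes, by a median of -0.23 for control siRNA against DMSO. A link gene by gene was not tested.

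**Figure D4:**
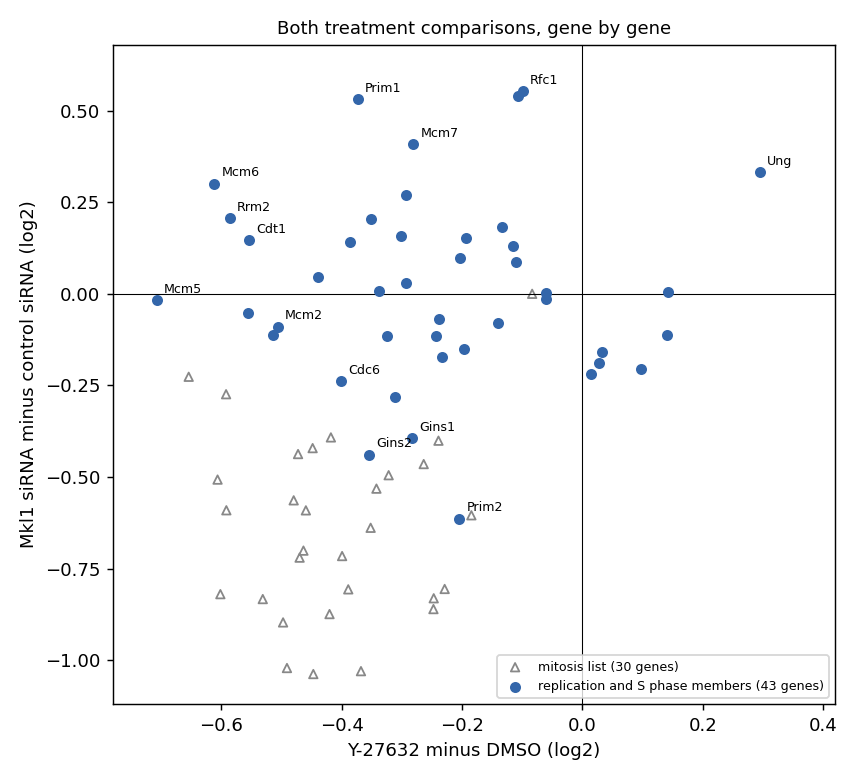
Log2 difference with Y-27632 against DMSO (horizontal) and with Mkl1 siRNA against control siRNA (vertical), with 1 filled point per replication gene and 1 open triangle per gene of the mitosis list. The replication genes spread around 0 on the vertical axis, from -0.61 to 0.55, while the triangles run down to -1.04.

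Genes of mitosis, which are expressed later in the cycle, provide a contrast. With Y-27632 all 30 measured genes of a mitosis list were below DMSO, with a median of -0.43 beside -0.24 for the replication genes. Against control siRNA the same Y-27632 array stood at a median of -0.05, with 16 of 30 below. Furthest below DMSO were Cdc20 at -0.65, Mki67 at -0.61 and Anln at -0.60, although the other strong probe set of Anln gave -0.14. With Mkl1 siRNA 29 of the 30 were below control siRNA and 1 stood at 0, with a median of -0.62 beside 0.00, led by Ccnb2 at -1.04, Kif23 at -1.03 and Aspm at -1.02. At least 1.5-fold lower were 18 of the 30 mitosis genes and 1 of the 43 replication genes, where 5.91% of all genes were. With 1 array per group this gap between the lists was not tested.

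Replication factors outside the family lay closer to their controls with Y-27632. Of 38 measured, 24 stood below DMSO, the median was -0.08, and none reached 1.5-fold, where 3% of all genes were higher and 1.33% lower by as much. With Mkl1 siRNA 19 were above and 19 below, with a median of -0.00. At least 1.5-fold lower were 2 of the 38, a share near the 5.91% of all genes. They were Pold4, a small subunit of polymerase delta, at -0.74, and Timeless, of the fork protection complex, at -0.73 on its main and -0.11 on its other probe set. Against DMSO, Pold4 stood at 0.56 with control siRNA and at -0.19 with Mkl1 siRNA, on 1 probe set. Timeless stood at -0.40 and -1.13 there on its main probe set. Of 14 other nucleotide enzymes, 11 were below DMSO with Y-27632, led by thymidine kinase Tk1 at -0.64. With Mkl1 siRNA 10 of 14 were above control siRNA, with a median of 0.15, led by the dCMP deaminase Dctd at 0.62, while Tk1 stood at -0.48. Against DMSO, Dctd stood at -0.53 with control siRNA and at 0.09 with Mkl1 siRNA.

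The E2F and RB network held several genes far from control with Mkl1 siRNA. Of 15 genes, 4 stood above control siRNA and 3 below it by 1.5-fold or more, where 5.42% and 5.91% of all genes did. Its difference from the replication genes was not tested. Cdk6, a kinase that phosphorylates RB, had signals of 7.88, 8.01, 7.84 and 9.06 in the same order of arrays as above, so that Mkl1 siRNA alone was high, by 1.21 (0.84 on the other strong probe set). Rb1, the RB protein that restrains E2F, stood at 0.68 and E2f6, a repressor, at 0.75 (0.25 on its other strong probe set). For Rb1 the control siRNA array itself stood at 0.55 against DMSO, and Y-27632 at 0.43. The repressor E2f7 had 7.38, 7.15, 7.12 and 5.95, with Mkl1 siRNA low by -1.17, and its relative E2f8 stood at -0.83. For E2f8 the control siRNA array was already at -0.82 against DMSO. Tfdp1, the DNA-binding partner of E2Fs, stood at -0.77. With Y-27632 none of the 15 reached 1.5-fold.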

How the data were processed

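Per the submitters' processing notes, the authors used RMA to turn Affymetrix mouse arrays into the deposited log2 signal of every probe set. Its version, not given in the sources used here, is unknown, as is the chip definition, and the scale was inferred from the range of the values. RMA includes quantile normalisation, so total RNA per cell cannot be compared. Of 45101 probe sets, 932 had several gene symbols and 9211 none, and only those with 1 were named, through the platform annotation. Differences, counts past 1.5-fold and 2-fold, and medians were computed with Python 3.11.15 and pandas 2.3.3, and the calculations were tested on simulated data. No test across arrays was possible. The members, the other gene lists and the thresholds were chosen with earlier results of these data known. Named from the other lists were genes at least 1.5-fold from control in a treatment comparison (at most 6 per list) and, for mitosis and for D cyclins and CDK inhibitors, the 3 furthest. CDK inhibitors, chromatin genes and the effect of alternatives are in the closing section. Markers of macrophages and leukocytes (3 of 8 reaching the median signal), endothelium (1 or 2 of 8) and skeletal myoblasts (1 or 2 of 7) were mostly weak on each array.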

Additional observations from a re-analysis of the deposited data

How the results depend on the processing

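With 1 array per group, no array could be left out, and a value was taken as moved when it shifted by 0.1 or more. No paired analysis was possible because each group has a single array. With the other control, the Y-27632 median of the 43 genes was -0.034 (3 genes at least 1.5-fold higher and 1 lower), and medians changed sign for licensing (0.083), polymerases and primase (0.077), the Fen1, Lig1 and Ung group (0.22) and Slbp (-0.20). The Mkl1 siRNA median was -0.30 (32 genes below 0 and 9 at least 1.5-fold lower), with sign changes for polymerases and primase (-0.34), the Fen1, Lig1 and Ung group (-0.31), nucleotide supply (-0.11), the clamp group (-0.043) and Slbp (0.075). Single genes changed sign too, such as Cdc6 with Y-27632 (from -0.40 to 0.59) and Cdt1 with Mkl1 siRNA (from 0.15 to -0.65). At 2-fold the counts of lower genes were 0 in all 3 comparisons. At a lower threshold (0.32 on the log2 scale) they were 15 with Y-27632, 3 with Mkl1 siRNA and 17 between the controls. The counts of higher genes there were 0, 5 and 1. The share of all genes past this lower threshold is not given here, so these counts lack a background. Averaging a gene's probe sets left 0 genes 1.5-fold lower with Mkl1 siRNA and 3 between the controls. A filter at the 75th percentile (8.08) kept 26 genes. Of these 22, 9 and 21 were below 0 in the 3 comparisons, and 6 were 1.5-fold lower between the controls. Shares of all genes after averaging or under this filter are likewise not given here. Under that filter and the one at the median, which drop Tyms, the nucleotide median between the controls was 0.027. Subtracting the median or a loess fit (span 0.3) moved no median or count of the family. No gene at least 1.5-fold from control in the main setting changed sign under any alternative run, but the size was not always kept. With the other control, Mcm5 stood at -0.17 and Mcm6 at -0.01 with Y-27632, and Prim2 at -0.45 with Mkl1 siRNA. These no longer reached 1.5-fold, while Rrm2 with Y-27632 still did, at -0.75. Weak signals limit E2f2 and Tyms, and 17 of the 43 probe sets used carry name endings that mark possible binding to several transcripts.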

Other observations

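Chromatin assembly genes, which package new DNA, lay with the replication genes. With Y-27632 11 of 12 were below DMSO, with a median of -0.29. Hells, a chromatin remodeler, stood at -0.74 on its main probe set and at -0.24 on the other strong one. Uhrf1, which recruits the DNA methyltransferase Dnmt1 to new DNA, had signals of 9.16 with DMSO, 8.48 with Y-27632, 8.51 with control siRNA and 8.71 with Mkl1 siRNA, with DMSO alone high. With Mkl1 siRNA 8 of 12 were above control siRNA, with a median of 0.08, and the exception at 1.5-fold was Atad2 at -0.63. Between the controls 11 of 12 were lower with control siRNA, with a median of -0.28.

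D cyclins, which act before S phase, and CDK inhibitors together had a median of 0.07 with Y-27632 over 11 genes. The furthest were Cdkn2b at 0.40, Cdkn3 at -0.31 and Cdkn2a, a weak signal, at 0.28. With Mkl1 siRNA the median was -0.04. Ccnd2, a D cyclin, had signals of 13.04 with DMSO, 13.11 with Y-27632, 13.47 with control siRNA and 12.35 with Mkl1 siRNA, so that the last array was low. Its 7 probe sets differed by -1.56 to -1.11. Cdkn2d, an inhibitor of Cdk4 and Cdk6, stood at -0.77, and Cdkn3 at -0.56.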
